A study of Homo sapiens with 95 samples.

Results

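The aryl hydrocarbon receptor and the genes best known to follow it were examined in AALE cells, an immortalized human bronchial epithelial line. The 7 genes were taken by symbol from the 23895 listed in each well: the receptor AHR, its partner ARNT, the repressor AHRR, and CYP1A1, CYP1B1, TIPARP and ALDH3A1. They were measured by 3′ digital gene expression (3′DGE), in which the 3′ ends of polyadenylated transcripts are counted by unique molecular identifiers (UMIs) and each well carries its own barcode. Values are given as UMI counts or as CPM, the count divided by the library total and scaled to 1000000.

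The 95 wells held 8 populations of these cells under 4 chemicals, after the medium was replaced with no exposure time given in the labels. NRF2, FGFR1, NRG1 and PIK3CA cells overexpressed the gene of that name (NFE2L2 for NRF2), with HCRED cells, which carried an empty vector with the HcRed reporter, as control. FAT1 and CDKN2A cells were CRISPR knockouts, with GFP cells, which received the Cas9-EGFP plasmid without a guide, as control. DMSO was the vehicle, and the other chemicals were a condensate of cigarette smoke (CSC, 24 µg/ml), BaP (benzo[a]pyrene, a polycyclic aromatic hydrocarbon, 173 µM) and NNK (a nitrosamine of tobacco, 490 µM). The labels do not say how knockout cells were selected or whether a population was a clone. Every well, controls included, was of the same immortalized line.

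AHR is a ligand-activated transcription factor held in the cytoplasm by a chaperone complex with HSP90. Once a planar aromatic ligand binds, it moves to the nucleus, pairs with ARNT and binds short DNA elements (xenobiotic response elements) near its target genes. CYP1A1 and CYP1B1 encode cytochrome P450 enzymes that oxidize aromatic hydrocarbons, in part to reactive products. TIPARP, an ADP-ribosyltransferase, and AHRR, which competes with AHR for ARNT, act against the receptor, and ALDH3A1 encodes an aldehyde dehydrogenase. In the airway these genes are known for their response to smoke.

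Comparisons used the 82 wells with 1-digit replicate numbers, which held between 692446 and 1895735 UMI counts. Among these, 25 of the 31 groups had 3 wells. Each chemical had its own rows of the library plate, so chemical and plate row cannot be told apart. Each population kept the same row and columns within those of a chemical, so population and place on the plate cannot be told apart either. The study calls the wells of a condition biological replicates, but the labels do not name separate cultures, so p-values measure the spread between these wells, which may in part be technical. Replicate 2 of NRG1 cells under NNK stood apart from the other wells of its group. Its chi-square per degree of freedom was 11.3 and 11.8 against a median of 1.44 over all 76 pairs. For the main tests under NNK that include it, calls are given with and without it. All 6 basal airway markers were detected, with KRT5 from 105 to 345.7 CPM. The ciliated cell marker FOXJ1, the endothelial markers VWF and CDH5 and the T cell marker CD3E were at 0. PECAM1, another endothelial marker, ran from 0 to 5.42 CPM. SCGB1A1 and SFTPC, markers of differentiated airway or alveolar cells, and the leukocyte marker PTPRC reached 0.773, 0.716 and 0.733. Of other cell types CD68, a macrophage marker, ran from 4.2 to 37.2 CPM and DCN, a fibroblast marker, from 0 to 15.8, with ranges that overlapped among the chemicals, and their part in the results was not tested. In DMSO wells the targeted gene was higher in each overexpression population than in HCRED cells, with no overlap. FAT1 ran from 0 to 3.4 CPM in FAT1 cells against 5.86 to 11.6 in GFP cells, and CDKN2A from 19 to 23.8 CPM in CDKN2A cells against 34.9 to 38.6 in GFP cells.

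The 7 genes lie on 7 chromosomes of the hg19 assembly. By the GENCODE annotation CYP1A1 occupies chr15:75011883-75017877, CYP1B1 chr2:38294116-38337044, ALDH3A1 chr17:19641297-19652256 and ARNT chr1:150782189-150849184, all on the minus strand. AHRR occupies chr5:321829-438406, TIPARP chr3:156391024-156424559 and AHR chr7:16955983-17385776, all on the plus strand. The response element was searched as its core GCGTG, and as the longer TNGCGTG that contains the core, on both strands of the 1500 bases before the canonical start site. CYP1A1 held 10 cores and 5 of the longer form, and CYP1B1 held 7 and 4. Of 19805 protein-coding genes, 0.596% held at least 10 cores and 0.0202% at least 5 of the longer form, and 3.79% and 0.0606% held as many as CYP1B1. TIPARP held 6 cores and 0 of the longer form, AHRR and ALDH3A1 each 4 and 1, ARNT 5 and 2, and AHR 0 of either. At least 1 core was found before 80.3% of all genes and at least 1 of the longer form before 26.5%. Such matches describe letters only, and other promoters and distant elements were not searched.

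The stretches of 160 bases outside annotated exons with the most matches to the longer form, then to the core, are shown for the CYP1 genes, which had the highest match counts, and for AHRR, the receptor's own repressor. They are read 5′ to 3′ on the gene's strand, with each core on either strand (GCGTG or CACGC) in capitals. They cover chr15:75018825-75018984 (minus strand, 3 cores) for CYP1A1, chr2:38304126-38304285 (minus strand, 4 cores) for CYP1B1 and chr5:321669-321828 (plus strand, 1 core) for AHRR. The first lies upstream of the whole CYP1A1 gene and the third directly before AHRR, while the second lies before the canonical start of CYP1B1 but within the span of its longer annotated transcripts.
CYP1A1 upstream stretch: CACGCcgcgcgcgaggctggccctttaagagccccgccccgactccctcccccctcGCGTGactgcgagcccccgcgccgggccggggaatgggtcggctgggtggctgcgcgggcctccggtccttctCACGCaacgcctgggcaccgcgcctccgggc
CYP1B1 upstream stretch: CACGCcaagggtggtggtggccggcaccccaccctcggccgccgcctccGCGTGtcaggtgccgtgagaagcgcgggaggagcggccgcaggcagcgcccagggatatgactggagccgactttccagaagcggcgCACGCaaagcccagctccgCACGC
AHRR upstream stretch: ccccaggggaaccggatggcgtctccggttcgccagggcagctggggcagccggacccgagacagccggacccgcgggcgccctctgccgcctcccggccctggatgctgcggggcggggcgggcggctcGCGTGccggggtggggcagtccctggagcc

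The question of which members respond to each chemical was addressed across populations. Under all 3 chemicals CYP1A1, CYP1B1, TIPARP and ALDH3A1 rose, and neither AHR nor ARNT passed the test. CYP1A1, the enzyme most often read as a sign of AHR activity, had a median of 2.15 CPM over 24 DMSO wells, from 0 to 3.86, which is 0 to 5 counts a well. It ran from 7.71 to 82.5 CPM in 17 CSC wells (median 35.4), from 10.7 to 96.6 in 19 BaP wells (median 34.7) and from 4.07 to 19.2 in 22 NNK wells (median 7.66). Every CSC, BaP and NNK well thus lay above every DMSO well of any population, since the highest DMSO well, FAT1 replicate 3, was at 3.86 CPM.

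CYP1B1, the second P450 of the pathway, was already counted in every DMSO well, from 3.31 to 21.6 CPM with a median of 9.27. It ran from 33.7 to 160 CPM under CSC (median 110.9) and from 32.2 to 115.4 under BaP (median 84), with no overlap with DMSO. Under NNK it ran from 8.65 to 115.9 CPM (median 21.2), and 21 of 22 wells lay above all DMSO wells of their own population. The highest NNK value belonged to NRG1 replicate 2, the well that stood apart, and the next highest was 42.1.

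**Figure D1:**
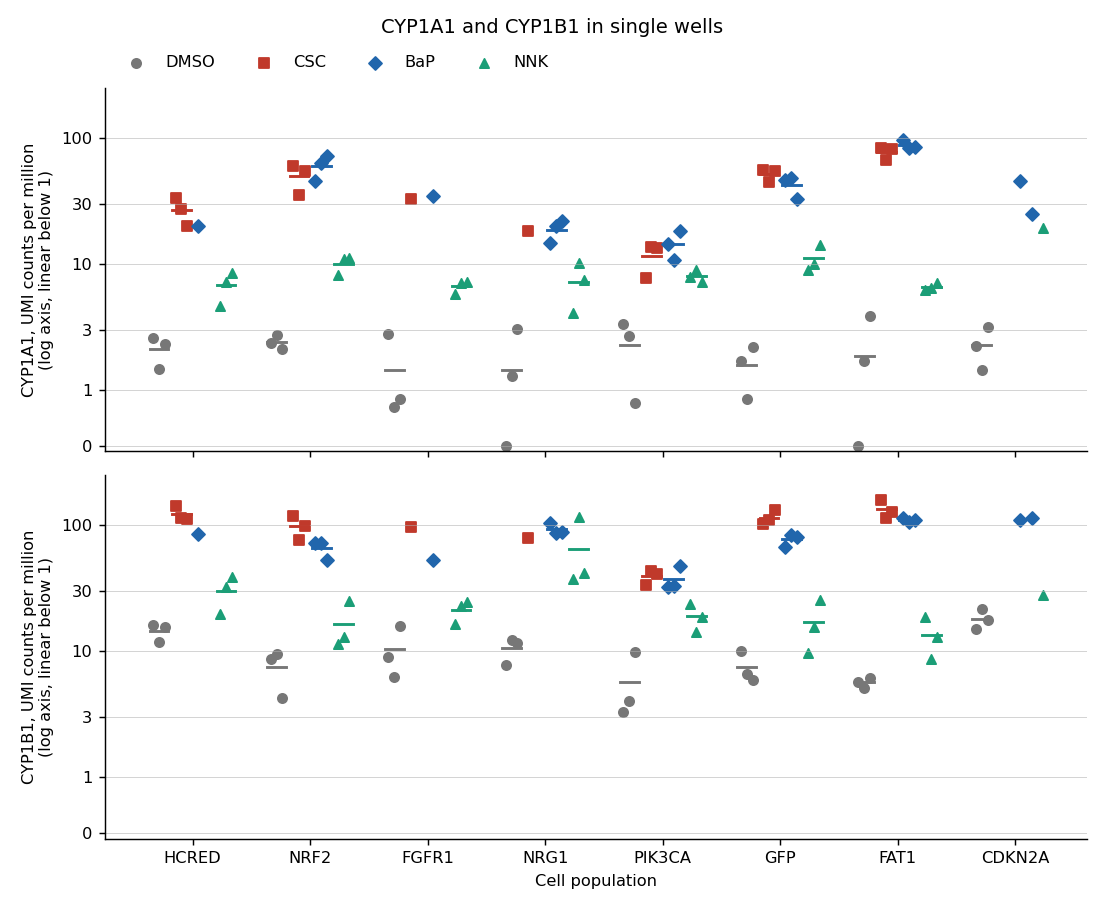
CYP1A1 (top) and CYP1B1 (bottom) in CPM, on a log axis that is linear below 1, for each of the 82 wells by population. Symbols stand for chemicals and bars for means of groups with 3 wells. For CYP1A1 every CSC and BaP well but PIK3CA CSC replicate 1 sits above the NNK wells of its population, and all NNK wells above DMSO wells, with FAT1 cells highest and PIK3CA cells lowest in mean under CSC and BaP.

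In limma-voom fits with population as a covariate, CYP1A1 rose by a log2 fold change of 4.29 under CSC (SE 0.27, adjusted p = 2.02e-22, 30 wells of 5 populations), 4.54 under BaP (SE 0.29, adjusted p = 3.95e-21, 30 wells of 5 populations) and 2.18 under NNK (SE 0.21, adjusted p = 1.07e-13, 42 wells of 7 populations). CYP1B1 rose by 3.65 (SE 0.14, adjusted p = 5.71e-35), 3.42 (SE 0.14, adjusted p = 2.28e-31) and 1.54 (SE 0.14, adjusted p = 9.46e-15). The fits share DMSO wells and cover different populations. Of the 6 members tested, 4 were called under each chemical, all of them higher, while 5.81% of all genes were called under CSC, 9.16% under BaP and 7.22% under NNK. Without NRG1 NNK replicate 2 the same 4 members were called under NNK, CYP1B1 at a log2 fold change of 1.41 and CYP1A1 at 2.16, against 19.9% of all genes.

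TIPARP, which modifies AHR and limits its action, rose by a log2 fold change of 1.66 under CSC (SE 0.10, adjusted p = 1.81e-22), 1.28 under BaP (SE 0.11, adjusted p = 1.55e-15) and 0.61 under NNK (SE 0.11, adjusted p = 1.35e-05). Single wells ran from 9.14 to 29.9 CPM under DMSO (median 14.5), 31.3 to 50.3 under CSC (median 40.6), 23.4 to 45 under BaP (median 31.2) and 9.37 to 35.3 under NNK (median 20.2). All 17 CSC wells and 18 of 19 BaP wells lay above every DMSO well of their own population, but only 16 of 22 NNK wells did. In FAT1 cells the NNK wells, at 13.1, 9.37 and 11.2 CPM, overlapped the DMSO wells, at 12.7, 10.2 and 14.7.

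ALDH3A1, which oxidizes aldehydes, was sparse, with 0 to 8 counts in a DMSO well. Its median was 0.805 CPM under DMSO, 3.76 under CSC, 5.42 under BaP and 1.88 under NNK. It rose by a log2 fold change of 1.21 under CSC (SE 0.29, adjusted p = 0.00335), 1.87 under BaP (SE 0.34, adjusted p = 2.81e-05) and 0.97 under NNK (SE 0.28, adjusted p = 0.0179). The call under NNK was lost in edgeR (log2 fold change 0.79, adjusted p = 0.133), and DESeq2 gave this gene no adjusted p under any of the chemicals. Every chemical left at least 1 PIK3CA well at 0.

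The receptor itself differed little. AHR had a median of 9.73 CPM under DMSO, 10 under CSC, 9.29 under BaP and 7.73 under NNK, with ranges that overlapped throughout. Its log2 fold change was -0.15 under CSC (95% interval -0.49 to 0.19), 0.06 under BaP (-0.27 to 0.40) and -0.13 under NNK (-0.41 to 0.16). Within populations the AHR change under CSC ran from -0.82 in NRF2 cells (-1.62 to -0.03) to 0.88 in PIK3CA cells (0.01 to 1.75). The F test of that difference among populations did not pass (adjusted p = 0.869). The highest AHR value of any well, 25.8 CPM, was again that of NRG1 NNK replicate 2, and without it the NNK value was -0.24 (adjusted p = 0.222). ARNT, the partner through which AHR binds DNA, had medians of 12.1 CPM under DMSO, 10.2 under CSC, 11.6 under BaP and 9.82 under NNK. Its log2 fold changes were 0.02 (-0.25 to 0.29), 0.12 (-0.15 to 0.38) and -0.15 (-0.40 to 0.11). Fewer cells of a kind and less RNA per cell cannot be told apart in such wells.

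**Figure D2:**
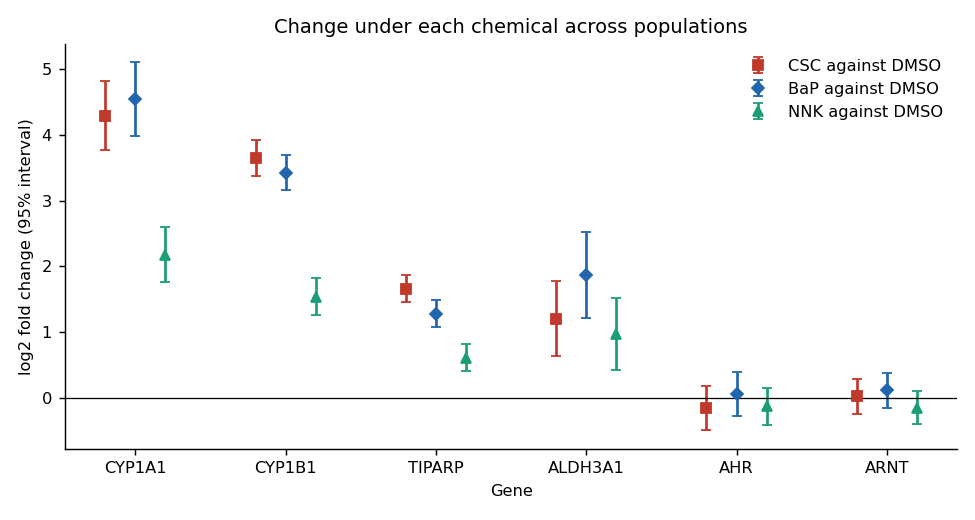
Log2 fold change of the 6 tested members under CSC, BaP and NNK against DMSO across populations, with 95% intervals as bars. CYP1A1 has the highest values, 4.29, 4.54 and 2.18, and the intervals of AHR and ARNT hold 0 under all 3 chemicals.

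AHRR, the repressor, stayed at or below a mean of 1 count and was not tested against DMSO. Over all wells of a chemical it had 6 counts in 24 DMSO wells, 21 in 17 CSC wells, 19 in 19 BaP wells and 6 in 22 NNK wells. Pooled over wells this was 0.175 CPM under DMSO (exact Poisson 95% interval 0.0643 to 0.381), 0.958 under CSC (0.593 to 1.46), 0.824 under BaP (0.496 to 1.29) and 0.231 under NNK (0.0848 to 0.503), intervals that cover counting error only. At least 1 count was seen in 6 DMSO wells, 12 CSC wells, 14 BaP wells and 5 NNK wells, and the highest count was 5, in FAT1 cells under CSC. With no filter on low counts AHRR was called under BaP (log2 fold change 1.09, limma adjusted p = 0.0148) and not under CSC (0.91, adjusted p = 0.109). Without that filter it was also called lower under NNK than under CSC (-0.94, limma adjusted p = 0.0399).

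**Figure D3:**
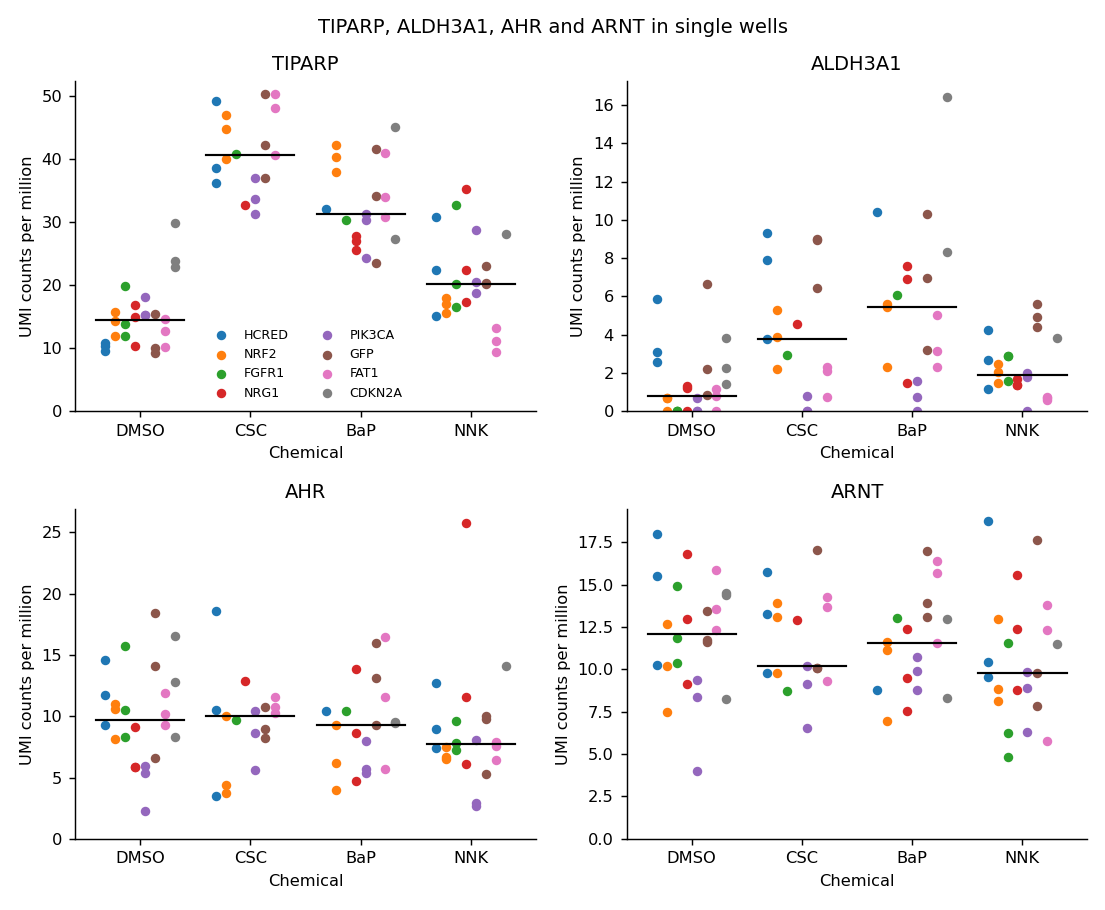
TIPARP, ALDH3A1, AHR and ARNT in CPM in each of the 82 wells, by chemical, with colours for populations and a black line at the median of all wells of a chemical. The TIPARP median moves from 14.5 under DMSO to 40.6 under CSC, while the AHR wells of all chemicals overlap, with NRG1 NNK replicate 2 alone at 25.8.

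The chemicals were then compared with each other in populations with 3 wells under both, at doses that differ and, for CSC, are given by mass of a mixture. Between CSC and BaP 1 of 7 tested members was called, against 4.58% of all genes. CYP1B1 lay 0.33 higher under CSC on the log2 scale (SE 0.07, limma adjusted p = 0.00161). CYP1A1 lay the other way at -0.19 (95% interval -0.37 to -0.01, adjusted p = 0.298), and TIPARP was at 0.24 (0.07 to 0.41, adjusted p = 0.116). With all 95 wells, or with 2-digit wells summed, TIPARP passed as well. These alternatives also cover populations outside the main fit. The first counts as separate samples wells that may come from the same culture.

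NNK gave lower values than either. Against BaP 3 of 6 tested members were called lower where 0.996% of all genes were called in either direction, and against CSC 3 of 6 where 12.3% were. CYP1A1 fell by 2.34 on the log2 scale against BaP (SE 0.17, limma adjusted p = 1.33e-17) and by 2.27 against CSC (SE 0.17, adjusted p = 7.2e-18). CYP1B1 fell by 1.74 and 2.39, and TIPARP by 0.77 and 1.09. Without NRG1 NNK replicate 2, CYP1A1, CYP1B1 and TIPARP were still called against BaP, at -2.42, -1.94 and -0.82, where 5.1% of all genes were. ALDH3A1 was at -0.83 against BaP (limma adjusted p = 0.231) and -0.54 against CSC (adjusted p = 0.182). Without NRG1 NNK replicate 2 it was at -0.75 against BaP (adjusted p = 0.139). The value against BaP passed with all 95 wells (-0.89, adjusted p = 0.0218) and with 2-digit wells summed (-0.88, adjusted p = 0.00682). Both alternatives again cover more populations, and both include that NRG1 well.

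Under DMSO the populations differed in 3 of 6 tested members, CYP1B1, TIPARP and ALDH3A1, by a moderated F test over all 8, in which 39.6% of all genes were called. CYP1B1 was highest in CDKN2A cells, at 15.1, 21.6 and 17.8 CPM, followed by HCRED cells at 16.3, 11.8 and 15.5. It was lowest in FAT1 cells, at 5.71, 5.1 and 6.17, and PIK3CA cells, at 3.31, 4.03 and 9.88. Wells of CDKN2A and HCRED cells overlapped, as did those of FAT1 and PIK3CA cells. CYP1A1 was not called among populations (F = 0.72, adjusted p = 0.727), with 5 counts at most in a well. AHR, at an adjusted p of 0.0587, passed without replicate 3 of HCRED, GFP or CDKN2A cells or replicate 1 of FGFR1 cells under DMSO.

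CDKN2A cells had the highest TIPARP, at 22.9, 23.8 and 29.9 CPM, above every DMSO well of the other populations, which reached 19.9. Against GFP cells TIPARP lay 1.01 higher on the log2 scale (SE 0.28, limma adjusted p = 0.00419) and CYP1B1 by 1.14 (SE 0.32, adjusted p = 0.00642), 2 of 6 members where 17.9% of all genes were called. CYP1B1 lost its call without GFP DMSO replicate 3 (0.975, adjusted p = 0.0709) and in DESeq2 (adjusted p = 0.054). Against HCRED cells, the other control, the CYP1B1 wells of CDKN2A cells overlapped.

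PIK3CA cells had less CYP1B1, ALDH3A1 and AHR than HCRED cells under DMSO, 3 of 6 members where 5.4% of all genes were called. CYP1B1 was at a log2 fold change of -1.40 (SE 0.36, limma adjusted p = 0.007). AHR was at 5.96, 5.37 and 2.28 CPM against 14.6, 11.8 and 9.29, a log2 difference of -1.30 (SE 0.39, adjusted p = 0.0281) on 3 to 17 counts a well. ALDH3A1 had 1 count in 3 PIK3CA wells against 15 in 3 HCRED wells, a ratio of 0.059 with a counting interval of 0.0014 to 0.384. These calls rest on few counts, and without PIK3CA DMSO replicate 1 none of the 3 passed (CYP1B1 at -1.10, adjusted p = 0.107), while without PIK3CA DMSO replicate 3 only CYP1B1 did. The AHR call was also lost without HCRED DMSO replicate 1 or 2, and that of ALDH3A1 without HCRED DMSO replicate 2, where ARNT passed (-1.23, adjusted p = 0.0247).

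In FGFR1 cells ALDH3A1 was at 0 in all 3 DMSO wells, against 15 counts in HCRED cells. The ratio of 0 had a counting interval of 0 to 0.261. With a floor of 3 counts over the group the level was 5.34-fold lower, a value set by the floor. ALDH3A1 was the only member called of 6, where 0.914% of all genes were. The call was lost without any 1 of the 3 FGFR1 wells or without HCRED DMSO replicate 2. No member passed in NRF2 cells (4.91% of all genes called), NRG1 cells (3.08%) or FAT1 cells against GFP cells (14.1%), nor between the control populations GFP and HCRED (10.8%). At an unadjusted p under 0.05 in limma there were 2 members in NRF2 cells (15.1% of all genes), 2 in NRG1 cells (13.5%), 1 in FAT1 cells (25.4%) and 1 in GFP cells (22.3%), of 6 tested in each. DESeq2 called none of them, but it tested only 2953 genes in NRF2 cells, 1884 in NRG1, 5958 in FAT1 and 4658 in GFP cells. In limma these numbers were 11217, 11328, 11142 and 11134. A gene without an adjusted p in DESeq2 could not be called, so no conclusion is drawn from its lack of calls. edgeR called ALDH3A1 in NRF2 cells (adjusted p = 0.0395), with 0, 1 and 1 counts against 3, 8 and 4. Without HCRED DMSO replicate 2, CYP1B1 passed in GFP cells (-1.04, adjusted p = 0.0472).

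The populations were also compared within each of the other chemicals. Under CSC the F test among 5 populations called CYP1A1 (F = 43.8, adjusted p = 1.01e-16), CYP1B1 (F = 36.3, adjusted p = 7.95e-15) and ALDH3A1, 3 of 7 members where 27.7% of all genes were called. Under BaP the same 3 genes were called of 6, CYP1A1 at F = 55 (adjusted p = 2.38e-18), again against 27.7% of all genes. The call of ALDH3A1 under BaP (F = 3.80, adjusted p = 0.0314) was lost without any 1 of the 3 PIK3CA wells or without GFP replicate 1 or 3. TIPARP passed there without GFP replicate 2 or 3, and AHR without FAT1 replicate 3. Under NNK only CYP1B1 was called (F = 11.7, adjusted p = 1.51e-06), against 16.7%. Without NRG1 replicate 2, CYP1B1 was at F = 8.14 (adjusted p = 2.6e-05) and ALDH3A1 passed as well (F = 3.10, adjusted p = 0.0435), against 25.2% of all genes. ALDH3A1 also passed without NRG1 replicate 3, HCRED replicate 1 or PIK3CA replicate 1, and AHR without NRG1 replicate 1. The tests between populations within CSC, BaP or NNK were chosen after the values were seen.

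FAT1 cells had the highest CYP1A1 of all populations under both, at 82.5, 67 and 81.8 CPM under CSC and 96.6, 83.4 and 85 under BaP. NRF2 cells were at 60.1, 35.4 and 54.2 under CSC and 45.7, 62.9 and 71.9 under BaP, and GFP cells at 55.6, 44.9 and 54.8 and at 46.4, 47.9 and 32.8. NRF2 and GFP wells overlapped under both chemicals, while no FAT1 well overlapped either. PIK3CA cells were lowest, at 7.71, 13.7 and 13.4 under CSC and 14.3, 10.7 and 18.4 under BaP. Under BaP they overlapped NRG1 cells at 14.6, 19.9 and 21.8. Under CSC the single NRG1 well with a 1-digit number was at 18.2. NRG1 wells with 2-digit numbers, at 12.7 and 15.6 under CSC, overlapped the PIK3CA wells.

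The order of CYP1B1 was not the same. Under CSC, HCRED cells at 142, 114 and 113 CPM overlapped FAT1 cells at 160, 114 and 129 and GFP cells at 102, 111 and 133, and NRF2 cells at 119, 76.8 and 98.9 reached into that range. PIK3CA cells lay apart from all 4 at 33.7, 43.7 and 40.9. Under BaP, FAT1 cells at 115, 106 and 110 stood above NRF2, GFP and NRG1 cells, which reached 72.5, 84 and 105, and overlapped the 2 CDKN2A wells at 109.8 and 115.

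Against its own control, FAT1 cells had more CYP1A1 under CSC by a log2 fold change of 0.65 (SE 0.16, limma adjusted p = 0.00147) and less ALDH3A1 by -2.06 (SE 0.54, adjusted p = 0.00444), 2 of 7 members where 11.2% of all genes were called. Under BaP both CYP1A1 at 1.12 (SE 0.16, adjusted p = 4.67e-07) and CYP1B1 at 0.59 (SE 0.12, adjusted p = 0.00067) were higher, 2 of 7 against 11.6%. The call of CYP1B1 was lost without GFP BaP replicate 1 (0.43, adjusted p = 0.0521). Under DMSO neither gene had been called in FAT1 cells.

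NRF2 cells had more CYP1A1 than HCRED cells under CSC by a log2 fold change of 0.92 (SE 0.21, limma adjusted p = 0.00291), the only member of 6 called against 2.88% of all genes. It was lost without HCRED CSC replicate 3 (0.77, adjusted p = 0.0717). PIK3CA cells had less CYP1A1 at -1.12 (SE 0.26, adjusted p = 0.00428), less CYP1B1 at -1.55 (SE 0.15, adjusted p = 3.29e-12) and less ALDH3A1, with 1 count in 3 wells against 21, a ratio of 0.0363 with a counting interval of 0.000877 to 0.226. These were 3 of 6 members against 4.58% of all genes. CYP1A1 was lost without PIK3CA CSC replicate 1 (-0.85, adjusted p = 0.0787) and ALDH3A1 without PIK3CA CSC replicate 2 (adjusted p = 0.0666).

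Whether the response itself, the change from DMSO, differed between populations is a separate question. No member passed the F test of the chemical by population terms in limma, of 6 tested under each chemical, where 0.106% of all genes were called under CSC, 0.106% under BaP and 0.0176% under NNK. At an unadjusted p under 0.05 in the F test there were 3 of these 6 members under CSC, 2 under BaP and 1 under NNK. Over all genes there were 665 (5.85%), 761 (6.73%) and 704 (6.2%). CYP1A1 was the member with the lowest limma adjusted p under CSC (0.182) and BaP (0.34), and without PIK3CA DMSO replicate 3 it passed under CSC (adjusted p = 0.0378). Without NRG1 NNK replicate 2 still no member passed under NNK, where 0.0621% of all genes did and 570 had an unadjusted p under 0.05.

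Within populations the fitted change of CYP1A1 under CSC ran from 2.32 in PIK3CA cells (95% interval 1.29 to 3.36) to 5.85 in FAT1 cells (4.76 to 6.95). Under BaP it ran from 2.64 (1.57 to 3.71) to 6.11 (4.96 to 7.26) in the same cells. These ends rest on few CYP1A1 counts under DMSO, 5, 4 and 1 in PIK3CA wells and 0, 3 and 5 in FAT1 wells. The F test among populations did not call CYP1A1 (adjusted p = 0.182 under CSC and 0.34 under BaP). CYP1B1 ran from 2.94 in PIK3CA cells (2.27 to 3.62) to 4.48 in FAT1 cells (3.88 to 5.08) under CSC and from 2.85 (2.20 to 3.51) to 4.28 (3.70 to 4.86) under BaP. Under NNK all 7 populations lay closer, from 1.67 in HCRED cells to 2.66 in GFP cells for CYP1A1.

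**Figure D4:**
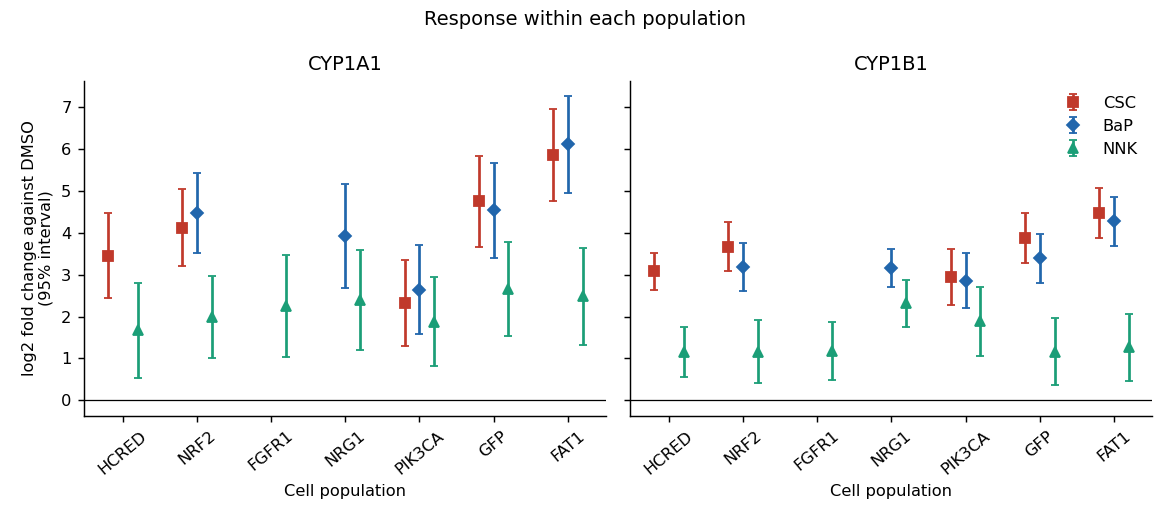
Log2 fold change of CYP1A1 (left) and CYP1B1 (right) against DMSO within each population that had 3 wells under both, for CSC, BaP and NNK, with 95% intervals as bars. For CYP1A1 under CSC the values run from 2.32 in PIK3CA cells to 5.85 in FAT1 cells. Their intervals are 1.29 to 3.36 and 4.76 to 6.95. CYP1A1 had at most 5 counts in any DMSO well, and the F test among populations called neither gene.

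The 4 direct tests of a population's response against that of its control, chosen after the values were seen, called no member in limma. FAT1 against GFP cells differed in the CYP1A1 response by 1.10 under CSC (95% interval -0.43 to 2.64, 0.00879% of all genes called, 636 at an unadjusted p under 0.05) and by 1.57 under BaP (-0.04 to 3.19, 0.0354%, 708 unadjusted). PIK3CA against HCRED cells differed by -1.13 under CSC (-2.58 to 0.31), where 0% of all genes passed and 643 had an unadjusted p under 0.05. NRF2 against HCRED cells differed by 0.66 (-0.71 to 2.03, 0.0528%, 643 unadjusted). For CYP1B1 the differences were 0.60 (-0.25 to 1.44), 0.88 (0.06 to 1.71), -0.14 (-0.95 to 0.67) and 0.59 (-0.14 to 1.32). Adjusted p for CYP1B1 lay between 0.773 and 0.991. At an unadjusted p under 0.05 CYP1B1 was the only member for FAT1 cells under BaP, against 6.26% of all genes. For PIK3CA cells 2 members were, TIPARP at -0.88 (-1.52 to -0.23) and AHR at 1.29 (0.16 to 2.42), against 5.65%. The other 2 tests had 0.

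The ratio of CYP1A1 to CYP1B1 counts within a well does not depend on its library size and was compared between populations, without a test and not as a comparison of the levels of the genes. HCRED cells had ratios of 0.178 to 0.237 under CSC and 0.216 to 0.235 under NNK. NRF2 cells lay above them, at 0.461 to 0.548 under CSC and 0.441 to 0.842 under NNK, with no overlap. Under DMSO, with at most 5 CYP1A1 counts a well, NRF2 wells at 0.273 to 0.5 also lay above HCRED wells at 0.125 to 0.158. Under BaP NRG1 cells ran from 0.139 to 0.247, and the single HCRED well with a 1-digit number, at 0.236, fell within that range. HCRED BaP replicates 31 and 32, not among these wells, had higher ratios, with 31 and 47 CYP1A1 counts against 106 and 103 of CYP1B1. Under NNK NRG1 cells ran from 0.0877 to 0.176, below every other population. The lowest of these was replicate 2, and the other NRG1 wells were at 0.109 and 0.176. FAT1 cells ran from 0.516 to 0.635 under CSC and 0.773 to 0.837 under BaP, and GFP cells from 0.405 to 0.544 and 0.402 to 0.69. Under NNK the FAT1 wells, from 0.333 to 0.75, overlapped the GFP wells, from 0.552 to 0.917. PIK3CA cells, with low levels of both genes, had ratios of 0.229 to 0.327 under CSC and 0.326 to 0.444 under BaP, between those of NRG1 and FAT1 cells under BaP.

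**Figure D5:**
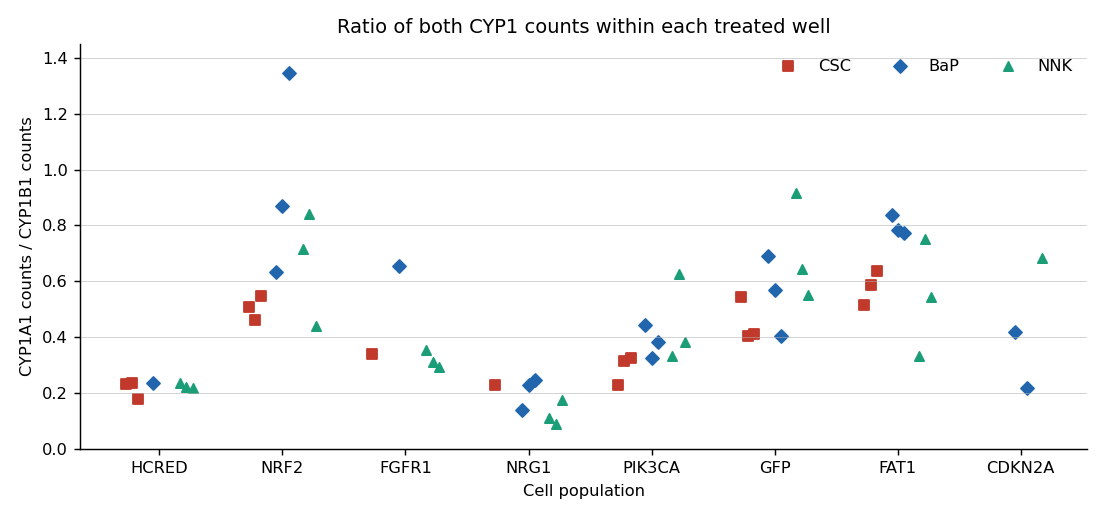
Ratio of CYP1A1 to CYP1B1 UMI counts by population in each treated well with a 1-digit replicate number, with symbols for CSC, BaP and NNK. HCRED cells have a single such well under BaP. HCRED wells sit between 0.178 and 0.237 and NRG1 wells at or below 0.247 under every chemical, and NRF2 wells run from 0.441 to 1.35.

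Across the 25 groups with 3 wells, CYP1A1 and CYP1B1 followed each other with a Pearson correlation of 0.908 of mean log2 CPM. Of 11350 genes the 5 most like CYP1A1 were DHRS3 (0.808), PIR (0.80), TMEM45B (0.785), EDC3 (0.782) and HTATIP2 (0.742). The 5 most like CYP1B1 were PIR (0.79), C1orf116 (0.785), SRXN1 (0.768), C9orf169 (0.767) and IER3 (0.767). These are descriptions over groups that share chemicals, populations and plate rows, and 3 of the 5 for CYP1A1 and 4 of the 5 for CYP1B1 were also among the first 5 by Spearman correlation. Without NRG1 NNK replicate 2 the correlation of CYP1A1 with CYP1B1 was 0.914, and the same 5 genes came first for each. Since these genes were chosen for following CYP1A1 or CYP1B1 over the same wells, their changes are given with no test. DHRS3, a retinal reductase, had a log2 fold change of 0.81 under CSC, 1.17 under BaP and 0.46 under NNK. SRXN1, which repairs oxidized peroxiredoxins, was at 0.70, 0.83 and 0.20.

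The wider pathway was read from further lists. They were chosen with earlier results of these data known, so their counts and medians are descriptions only. Of 11 other genes known to be induced through AHR, 10 were tested, and 6 rose under CSC, 5 under BaP and 3 under NNK, with none lower, where 5.81%, 9.16% and 7.22% of all genes were called. Their median log2 fold change was 0.70, 0.59 and 0.19, against -0.000682, 0.00922 and -0.00897 over all genes. Without NRG1 NNK replicate 2, 3 rose under NNK as well, HES1, IL1B and NQO1, with a median over the list of 0.08 and 19.9% of all genes called. NQO1, a quinone reductase that also answers to NRF2, rose by 1.27, 0.87 and 0.28 (limma adjusted p = 2.92e-39, 2.46e-24 and 4.63e-05), and the transcriptional repressor HES1 by 1.19, 0.97 and 0.81. SERPINB2, an inhibitor of plasminogen activators, rose by 2.19 under CSC and 1.11 under BaP, and was at 0.10 under NNK (adjusted p = 0.778). CYP1A2, the liver member of the CYP1 family, did not pass under any of them, at 0.37, 0.44 and 0.37 on 28 to 33 counts over all wells of a chemical.

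Of 4 chaperones that hold AHR in the cytoplasm, all tested, HSP90AA1 was lower under BaP by -0.18 (limma adjusted p = 3.42e-11), and none passed under CSC or NNK. Of 10 other bHLH-PAS factors, the family of AHR and ARNT, and their coactivators, 8 were tested. None passed under CSC, the coactivator NCOA3 was lower under BaP (-0.25, adjusted p = 0.0427), and NCOA3 (-0.33, adjusted p = 0.0139) and the circadian factor CLOCK (-0.47, adjusted p = 0.0253) were lower under NNK. Of 5 P450 enzymes known to activate NNK none passed the filter on low counts. Of 4 enzymes that act on the P450 products of BaP, the aldo-keto reductase AKR1C1 rose under CSC by 1.46 (adjusted p = 2.48e-09) and under BaP by 0.88 (adjusted p = 0.00336), and the glutathione transferase GSTP1 by 0.12 and 0.15. None of the 4 passed under NNK. These counts stand against the same shares of all genes, 5.81% under CSC, 9.16% under BaP and 7.22% under NNK. Without NRG1 NNK replicate 2, against 19.9%, the chaperone HSP90AB1 was lower under NNK by -0.10 (limma adjusted p = 0.00424) and GSTP1 higher by 0.10 (adjusted p = 0.00113), while NCOA3 and CLOCK were again the coactivator and factor called lower, at -0.39 and -0.62.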

How the data were processed

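For each well the authors deposited a file of UMI counts by gene, without normalization. Per the study's methods and the submitters' processing notes, the authors received count matrices for which reads had been aligned with BWA 0.7.10 to the hg19 RefSeq transcriptome, each UMI counting once per gene. Strand handling was not given in the sources used here.

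Groups came from the sample titles. Wells with 2-digit replicate numbers (13) stayed out of the main comparisons. The labels do not say whether these were separate cultures or were split from the same culture. Counts were fitted in R 4.3.3 with limma 3.58.1, voom weights and TMM factors from edgeR 4.0.16, over genes with a mean count above 1, two-sided, with Benjamini-Hochberg adjustment over all genes and a threshold of 0.05. Chemicals were compared with population as covariate. F tests compared weighted fits that held or lacked the terms tested. Named genes were the members, the listed pathway genes and the 5 genes most like each CYP1 gene. edgeR and DESeq2 1.42.0 served as alternatives, and scripts were tested on simulated data. The depth, from 692446 to 1895735 counts, limits AHRR and ALDH3A1. The members and lists were chosen with earlier results of these data known. Sequences and positions came from GENCODE and the hg19 genome.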

Additional observations from a re-analysis of the deposited data

Results flagged for a closer look

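The wells with 2-digit replicate numbers entered no main comparison. They are given because their lowest value often exceeded the highest under DMSO in the same population. Over CYP1A1, CYP1B1, TIPARP and ALDH3A1 this held in 20 of 24 combinations of gene and group. The share of all genes separated in this way was not computed, so the count is a description only. They were tested only together with the other wells, in the alternatives that use all 95 wells or sum them. Under CSC, CDKN2A wells averaged 37 CPM for CYP1A1, 120 for CYP1B1, 61.7 for TIPARP and 13.6 for ALDH3A1. FGFR1 wells under CSC averaged 28.9 for CYP1A1, 85.7 for CYP1B1 and 43.1 for TIPARP, and NRG1 wells 14.1, 80.3 and 35.2.

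Under BaP, FGFR1 wells averaged 37.5 CPM for CYP1A1, 65.4 for CYP1B1, 37 for TIPARP and 3.11 for ALDH3A1, and HCRED wells 35.8 for CYP1A1, 97.6 for CYP1B1 and 35.9 for TIPARP. Under NNK, CDKN2A wells averaged 12.7 for CYP1A1, 32.3 for CYP1B1 and 7.24 for ALDH3A1, and their TIPARP wells, at 24.6 and 24.9, lay within the DMSO range of 22.9 to 29.9. ALDH3A1 also overlapped DMSO in FGFR1 and NRG1 wells under CSC and in HCRED wells under BaP.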

How the results depend on the processing

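With other settings 3638 values were recomputed, and 3548 had the same sign and call, a count within 1.5 times the one reported, or a group level within 1 SD. No called value changed sign. The cause of the changes was not tested. The count of members called against DMSO was 4 for every chemical, except for 3 under DESeq2, 3 for NNK under edgeR and 5 for BaP with no filter, where AHRR passed. All wells as separate samples, and 2-digit wells summed, both gave 2 called members for CSC against BaP. They reversed the uncalled AHR value under BaP to -0.014 and -0.029. Both also cover more populations than the main fits. Summing also reversed ARNT under CSC to -0.027. DESeq2 called 0 members in FGFR1 cells, 0 in PIK3CA cells under DMSO and 1 under CSC, 1 in CDKN2A cells and 1 in FAT1 cells under CSC. It gave no adjusted p for ALDH3A1 in the comparisons with DMSO and in those of FGFR1, PIK3CA and FAT1 cells that had called it, for AHR and CYP1B1 in PIK3CA cells under DMSO, nor for CYP1A1 in them under CSC, so these are not lost calls. edgeR, and no filter on low counts, each called 1 member in NRF2 cells under DMSO. The single fit called 1 in PIK3CA cells under DMSO. Median-ratio factors and no filter each gave 2 among populations under NNK. Leaving out 1 well gave 1 to 2 called members for CDKN2A under DMSO, FAT1 under BaP and populations under NNK, and 0 to 1 for FGFR1 under DMSO, NRF2 under CSC, GFP against HCRED under DMSO and the CSC response. It gave 0 to 3 for PIK3CA under DMSO. Uncalled values that changed sign ran from -0.041 to 0.16 for AHR under BaP, from -0.036 to 0.081 for ARNT under CSC and from -0.44 to 0.28 for the CYP1B1 response of PIK3CA cells. Same-numbered wells correlated at a mean of -0.0602 to 0.0651 over 17 comparisons, not above 0.1 in every pair, so the numbers were not taken to pair wells. The replicate block brought AHR among populations under DMSO past the threshold (F = 2.52, adjusted p = 0.0471), 4 members in place of 3, and changed no other call.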

Other observations

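EDC3, an enhancer of mRNA decapping and 1 of the 5 genes most like CYP1A1, is also its neighbour. It occupies chr15:74922899-74988633 of hg19 on the minus strand, the strand of CYP1A1, with 23249 bases and no other annotated gene between them, and lies downstream of CYP1A1. Since it was chosen for its likeness to CYP1A1 over these wells, its values are given with no test: its log2 fold change was 0.55 under CSC, 0.67 under BaP and 0.11 under NNK. Its median was 12.3 CPM over 24 DMSO wells, 15.7 under CSC, 18.4 under BaP and 11.3 under NNK. CLK3, which overlaps the far end of EDC3 on the other strand, had medians of 4.38, 5.31, 5.40 and 4.76 CPM, and strand handling is not given, so reads of the overlap cannot be assigned. The antisense gene CYP1B1-AS1 had 0 counts under DMSO and BaP and 2 each under CSC and NNK.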
